A study of Mus musculus with 6 samples.

Results

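The genes described here encode 9 receptors by which lymphocytes of the gut sense small molecules from food, microbes and neighbouring cells: Ffar2, Ffar3, Rara, Rarg, Rxra, Rxrb, Vdr, Gpr183 and Gpr15. They were chosen by symbol for the ligand class they serve, from the 25075 gene symbols measured, and all 9 were present. The RNA was that of group 3 innate lymphoid cells (ILC3s), lymphocytes without antigen receptors that make the cytokines IL-17 and IL-22, sorted from mouse small intestine (B6 background). A sample was 2000 cells negative for lineage markers and KLRG1 and positive for CD90, from which 2 ng of RNA was turned into full-length cDNA by Smart-seq2, a protocol for scarce material. One group of 3 samples came from Batf fl/fl PLZF-Cre+ mice and is called labelled Batf-deficient; the other group of 3 came from Batf fl/fl PLZF-Cre- mice and is called labelled control, so that both groups carry the floxed Batf alleles and only the first carries Cre. Batf encodes an AP-1 family transcription factor. The Cre is driven by the gene of PLZF, a transcription factor of innate lymphoid precursors and innate-like T cells, so deletion is not limited to ILC3s, and PLZF-negative precursors could escape it. Age and sex are not given in the labels.

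Short-chain fatty acids are made by gut bacteria from fibre and act on G protein-coupled receptors at the cell surface. Retinoic acid, made from dietary vitamin A, and vitamin D instead enter the cell and bind nuclear receptors (RAR and VDR), which sit on DNA as heterodimers with a retinoid X receptor (RXR). Oxysterols, hydroxylated forms of cholesterol, are chemoattractants read by the receptor GPR183, which guides ILC3s to lymphoid tissue of the gut. GPR15 is a homing receptor of the large intestine, with a ligand made by epithelium.

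The 6 libraries held 8420533, 8228513 and 13615895 counts in labelled Batf-deficient replicates 1 to 3, and 9080012, 15399111 and 17334207 in labelled control replicates 1 to 3. Batf, the targeted gene, was at 38.2, 41.2 and 41.2 CPM in libraries labelled Batf-deficient, against 15.1, 15.3 and 18.9 CPM in the labelled control libraries (CPM, each count scaled to a fixed library size after TMM, edgeR's default normalization). Its direction therefore went against the label (log2 fold change 1.29, SE 0.16; edgeR adjusted p = 1.70e-05). It turned to -1.11 when libraries were scaled on 19 genes shared by ILCs and T cells, called the lymphoid panel here. The groups differed widely in composition. The panel took 0.687% to 0.705% of counts in the libraries labelled Batf-deficient and 0.166% to 0.180% in labelled control libraries; 12 ILC3 markers, Il22 and Il23r among them, took 1.53% to 1.59% and 0.258% to 0.269%. In the other direction, 14 intestinal epithelial markers took 0.0325% to 0.0390% and 1.48% to 1.56%, and 16 pancreatic acinar markers took 0.000547% to 0.000779% and 7.30% to 7.81%. Panel scaling moved the log2 fold change of a typical gene by -2.40 relative to TMM, and library totals moved it by -0.38. Values without a named scaling are with TMM factors, and directions given for them hold for that scaling. Xist, the RNA of X inactivation, had 1831, 1860 and 2144 counts in the libraries labelled Batf-deficient and 14, 7 and 19 in labelled control libraries, a difference that runs with the groups. The labels do not give sex, so a difference in sex between the groups, if there is one, cannot be told apart from genotype.

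Of the 9 receptor genes, 7 had enough counts to be tested and 2, Ffar3 and Gpr15, had not. With TMM factors, 3 of the 7 were higher in the libraries labelled Batf-deficient (Ffar2, Gpr183, Rara), 3 were lower (Vdr, Rxra, Rxrb) and Rarg did not pass. Among all 15261 genes tested 30.2% were called higher and 34.1% lower (edgeR quasi-likelihood test, adjusted p under 0.05), and 64.4% in either direction, so calls both ways were common. Of all genes, 34.6% had CPM values without overlap on the higher side and 36.5% on the lower side (71.2% together). By library totals the same 3 receptors were higher and the same 3 lower, against 20% and 42.4% of all genes (62.4% together). With panel scaling 1 of the 7, Ffar2, was higher and 5 were lower, against 2.04% and 86.5% of all genes (88.6% together); panel-scaled values did not overlap for 2.38% of genes on the higher and 85.9% on the lower side. Vdr, Rxra and Rxrb were thus lower with TMM factors, library totals and the panel alike. Library totals and the panel both move genes down relative to TMM, so a gene lower by TMM could not turn higher there. Ffar2 and Gpr183 moved with the panel genes, and Rara lay between, higher by TMM and lower by the panel. In a bulk sample, fewer cells of a type and less RNA per cell cannot be told apart.

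**Figure D1:**
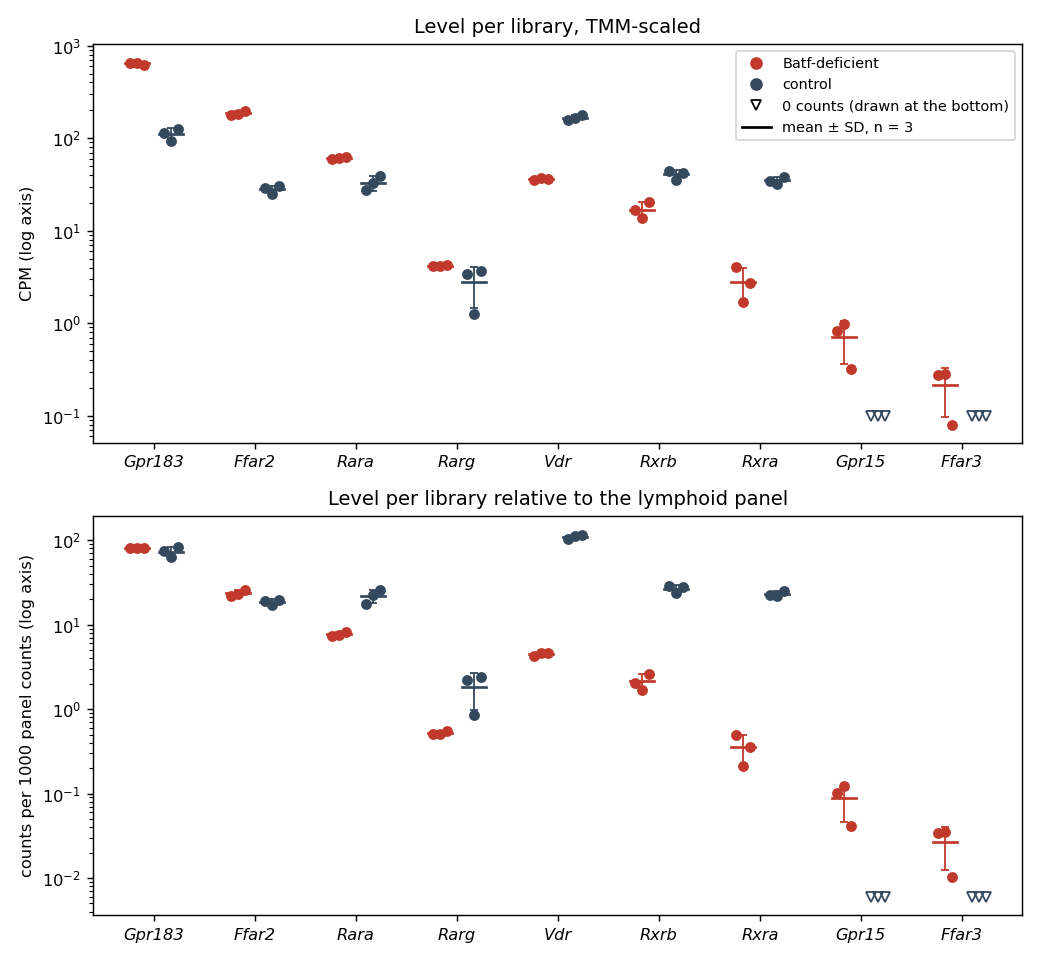
Level of each receptor gene in each library, as TMM-scaled CPM (upper plot) and as counts per 1000 counts of the 19-gene lymphoid panel (lower plot), both on log axes; points are libraries, bars the mean ± SD of 3, and open triangles libraries with 0 counts. Gpr183 was at 617 to 657 CPM in the libraries labelled Batf-deficient and 92.2 to 126 CPM in labelled control libraries, while relative to the panel the groups overlap; Vdr, Rxrb and Rxra are lower in the libraries labelled Batf-deficient in both plots.

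Among the fatty acid receptors, Ffar2 (GPR43), which binds acetate and propionate and is known to promote ILC3 expansion and IL-22 in the mouse colon, was the one detected at a useful level. The gene lies on chromosome 7 from 30818348 to 30823775 (minus strand, mm10). Its level was 179, 185 and 199 CPM in libraries labelled Batf-deficient, against 29.1, 25.0 and 30.1 CPM in the labelled control libraries. Every library of the first group lay above every one of the second, and the means of 187 ± 10.3 and 28.1 ± 2.70 CPM (SD, n = 3 each) differed 6.67-fold (log2 fold change 2.74, SE 0.12, edgeR adjusted p = 1.48e-09). Relative to the panel it had 21.9, 23.0 and 25.8 counts per 1000 panel counts in the libraries labelled Batf-deficient, against 19, 17.1 and 19.8 in labelled control libraries. These groups did not overlap either, but the difference was small (log2 fold change 0.34, SE 0.13, edgeR adjusted p = 0.0252). It did not hold when libraries were scaled on the 12 ILC3 markers, an alternative added after the data were seen (-0.22, edgeR adjusted p = 0.184). Summed T cell markers, which ILCs share in part, were higher in the same libraries, at 0.202% to 0.215% of counts in the libraries labelled Batf-deficient and 0.0396% to 0.0410% in labelled control libraries, and their part in the difference was not tested.

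The region upstream of Ffar2 is shown because it matches TGANTCA (N, any base), a loose form of the AP-1 element that BATF dimers bind. Those of Gpr183 and Vdr are shown because these were the most abundant receptors that moved in opposite directions. Each run is the 250 bases before the most upstream annotated start (RefSeq, GRCm38.p6, minus strand), at chr7:30823776-30824025 for Ffar2, chr14:121965194-121965443 for Gpr183 and chr15:97908297-97908546 for Vdr. Capitals mark TGANTCA, called the AP-1 letters here, and AGGTCA, the nuclear receptor half-site, searched on both strands.
Ffar2: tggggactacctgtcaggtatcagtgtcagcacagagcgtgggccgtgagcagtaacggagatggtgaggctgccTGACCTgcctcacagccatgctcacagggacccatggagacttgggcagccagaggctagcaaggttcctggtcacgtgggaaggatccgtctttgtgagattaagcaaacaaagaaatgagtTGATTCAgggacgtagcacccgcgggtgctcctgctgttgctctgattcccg
Gpr183: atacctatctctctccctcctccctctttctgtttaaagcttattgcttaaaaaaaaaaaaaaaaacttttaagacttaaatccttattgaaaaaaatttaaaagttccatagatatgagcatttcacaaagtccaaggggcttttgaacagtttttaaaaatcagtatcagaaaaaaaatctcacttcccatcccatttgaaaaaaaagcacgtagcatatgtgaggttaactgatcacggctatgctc
Vdr: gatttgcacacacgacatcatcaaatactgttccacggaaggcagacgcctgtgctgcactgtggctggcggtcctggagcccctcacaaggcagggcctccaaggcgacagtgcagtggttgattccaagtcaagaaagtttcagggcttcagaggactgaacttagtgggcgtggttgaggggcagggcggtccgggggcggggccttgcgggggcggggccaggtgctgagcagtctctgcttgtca
In Ffar2 the AP-1 letters began 52 bases and the half-site, on the reverse strand, 175 bases before the start. The AP-1 letters read TGATTCA there, with T at the centre where the usual AP-1 site has C or G. Neither motif was in the windows of Gpr183, Vdr, Rara, Rxra, Rxrb or Ffar3. The window of Rarg held 1 half-site and that of Gpr15 held 1 match to the AP-1 letters, also TGATTCA. By the gene coordinates given here, from a second annotation (GENCODE), the windows of Vdr, Rara and Rxra lie inside the gene. Of the 250 bases of the Gpr15 window 198 are exon in that annotation. For these 4 genes the windows are thus upstream of the RefSeq start only. Of 27025 mouse promoters, 6.85% held the AP-1 letters and 13.8% the half-site in the same window, so single matches of this kind were not rare.

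Ffar3 (GPR41), which prefers propionate and butyrate and in the gut is known from enteroendocrine cells and enteric neurons, was barely present. It had 2, 2 and 1 counts in the libraries labelled Batf-deficient and none in any labelled control library. These 5 counts were 2.96 times a floor of 3 counts over the labelled control group, on TMM-scaled library sizes. The lower 95% limit of an exact interval for the ratio of the group totals, which covers counting error only, was 1.63. In the fit without a count filter Ffar3 did not pass (edgeR adjusted p = 0.0828). On panel counts the 5 lie below that floor, so no direction is given there. The 10 enteroendocrine markers made up 0.000926% to 0.00122% of counts in the libraries labelled Batf-deficient and 0.0214% to 0.0260% in labelled control libraries.

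Of 11 genes for sensing and moving short-chain fatty acids, 8 were tested, with a median log2 fold change of -2.76, against 0.02 for all genes tested. Ffar2 was the 1 called higher and 6 were lower, against 30.2% and 34.1% of all genes. The lower genes were all transporters or their partners. Slc16a1, a monocarboxylate carrier, was at 11.7 ± 1.31 CPM in the libraries labelled Batf-deficient and 39.3 ± 3.11 CPM in labelled control libraries. Bsg, the chaperone that brings this carrier to the membrane, was at 118 ± 15.6 and 310 ± 11.8 CPM, and the chloride and bicarbonate exchanger Slc26a3 of the epithelial brush border at 2.76 ± 0.882 and 36.7 ± 6.77 CPM. Their log2 fold changes were -1.74, -1.39 and -3.77. Each was lower with panel scaling too (edgeR adjusted p between 6.43e-12 and 3.34e-11), where 86.5% of all genes were lower. Hcar2, the receptor for niacin and butyrate, was too low to test, at 0.553 ± 0.145 CPM in the libraries labelled Batf-deficient and 1.32 ± 1.21 CPM in labelled control libraries.

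Of the retinoic acid receptors, Rara was the main form in both groups. RARα is the receptor through which retinoic acid is known to support gut-homing receptors in mouse lymphocytes. Rara (chromosome 11, 98927818 to 98974942, plus strand) was at 60.0, 61.4 and 62.8 CPM in libraries labelled Batf-deficient, against 27.4, 32.5 and 39.3 CPM in labelled control libraries. The first group varied little and lay wholly above the second (log2 fold change 0.89, SE 0.15, edgeR adjusted p = 0.000209). Relative to the panel the order turned, with 7.35, 7.66 and 8.14 counts per 1000 panel counts in the libraries labelled Batf-deficient and 17.8, 22.2 and 25.8 in labelled control libraries (log2 fold change -1.51, SE 0.16, edgeR adjusted p = 7.09e-07).

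Rarg, whose product RARγ is best known from epithelium, skin and cartilage, was low. Its gene lies on chromosome 15 from 102234938 to 102257517 (minus strand). It had 4.15, 4.11 and 4.25 CPM, from 30, 29 and 53 counts, in the libraries labelled Batf-deficient, against 3.39, 1.26 and 3.68 CPM, from 36, 22 and 71 counts, in labelled control libraries. Labelled control replicate 2 was the low one, and the test did not pass with TMM factors (log2 fold change 0.59, SE 0.46, edgeR adjusted p = 0.281). Without that library the value was 0.24, and with panel scaling Rarg was lower (log2 fold change -1.79, edgeR adjusted p = 0.00345). The ratio of Rara to Rarg counts within a library does not depend on scaling. It was 14.5, 14.9 and 14.8 in the libraries labelled Batf-deficient and 8.08, 25.9 and 10.7 in labelled control libraries, and the groups overlapped (exact two-sided permutation test, p = 0.70, adjusted over 5 ratios p = 0.80).

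Of the receptor genes tested, the retinoid X receptor gene Rxra differed most between the groups, while Rxrb differed less than Ffar2, Gpr183 and Vdr with TMM factors. Rxra (chromosome 2, 27676440 to 27762957, plus strand) encodes RXRα, the form that prevails in liver, gut epithelium and myeloid cells, and Rxrb (chromosome 17, 34031812 to 34038399, plus strand) encodes RXRβ, which is broadly expressed. Rxra was at 4.01, 1.70 and 2.73 CPM, from 29, 12 and 34 counts, in the libraries labelled Batf-deficient, against 34.4, 32.1 and 38.2 CPM, from 366, 563 and 737 counts, in labelled control libraries. It was 12.4-fold lower (log2 fold change -3.63, SE 0.26, edgeR adjusted p = 1.74e-07). Rxrb was at 16.7, 13.6 and 20.4 CPM in libraries labelled Batf-deficient, against 44.2, 34.9 and 42.4 CPM in labelled control libraries, and was 2.38-fold lower (log2 fold change -1.25, SE 0.18, edgeR adjusted p = 8.08e-05). Neither gene had overlapping groups, and with panel scaling the log2 fold changes were -6.02 for Rxra and -3.64 for Rxrb.

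The ratio of the 2 genes within a library does not depend on scaling. The ratio of Rxra to Rxrb counts was 0.240, 0.125 and 0.134 in the libraries labelled Batf-deficient and 0.779, 0.920 and 0.90 in labelled control libraries. The groups were apart, by -2.41 in mean log2 ratio, and p = 0.10 is the smallest that an exact two-sided permutation test of 3 against 3 can give (adjusted over 5 ratios p = 0.167). Macrophage, dendritic cell and granulocyte markers mostly moved the same way. Of 14, 10 were tested and 7 were lower and 1 higher, against 34.1% and 30.2% of all genes. Their sum was 0.00784% to 0.00810% of counts in the libraries labelled Batf-deficient and 0.0874% to 0.101% in labelled control libraries. The higher one was Xcr1, a dendritic cell gene (log2 fold change 1.24, and -1.17 with the panel). Clec9a, of the same cells, was at 0 in all 3 libraries labelled Batf-deficient but was too low to test, so it gives no direction. The part of these cells, and of the epithelium, in the level of Rxra was not tested.

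**Figure D2:**
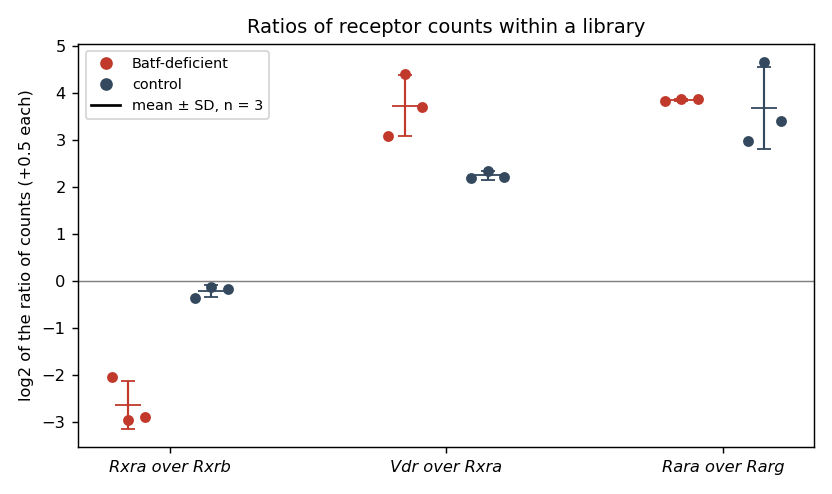
Ratios of receptor counts within each library on a log2 scale, with 0.5 added to each count; points are libraries and bars the mean ± SD of 3. The mean log2 ratio of Rxra over Rxrb was -2.62 in the libraries labelled Batf-deficient and -0.21 in labelled control libraries, that of Vdr over Rxra was 3.74 and 2.25, and the groups overlap for Rara over Rarg.

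The vitamin D receptor gene Vdr (chromosome 15, 97854425 to 97910630, minus strand), which is high in intestinal epithelium and induced in activated lymphocytes, was lower in the libraries labelled Batf-deficient. Its level was 35, 37.4 and 36.0 CPM there, against 158, 165 and 177 CPM in labelled control libraries. The 3 values of each group were close together and the groups far apart, 36.1 ± 1.22 and 167 ± 9.85 CPM (SD, n = 3 each). It was 4.61-fold lower (log2 fold change -2.20, SE 0.11, edgeR adjusted p = 4.74e-09), and -4.60 on the log2 scale with panel scaling. The median of 14 epithelial markers was -4.83, with 13 lower and none higher, against 34.1% and 30.2% of all genes. Among the lower markers were the adhesion molecule Epcam at -4.93 and the microvillus protein Vil1 at -5.96. The sum of the 14 markers moved with Vdr, and its part in the level of Vdr was not tested. Its counts were 8.72, 22 and 13.2 times those of Rxra in the libraries labelled Batf-deficient, and 4.58, 5.13 and 4.64 times in labelled control libraries, a difference of 1.48 in mean log2 ratio (exact two-sided permutation test, p = 0.10, adjusted over 5 ratios p = 0.167).

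The vitamin D list, which counts Vdr itself, included several genes of the absorptive epithelium. Of 16 genes 10 were tested, 8 were lower and 2 higher (median -3.06), against 34.1% and 30.2% of all genes. With panel scaling all 10 were lower, as were 86.5% of all genes. The intestinal calcium-binding protein S100g was at 0.822 ± 0.340 CPM in the libraries labelled Batf-deficient and 13.1 ± 2.61 CPM in labelled control libraries, and the tight junction protein Cldn2 at 2.38 ± 0.898 and 54.6 ± 1.01 CPM. Cubn, an endocytic receptor for vitamin D bound to its carrier, was at 0 counts in the libraries labelled Batf-deficient and at 37.5 ± 10.5 CPM in labelled control libraries. The disulfide isomerase Pdia3 (log2 fold change 1.03) and the calcium pump Atp2b1 (0.59), both widely expressed, were the 2 higher genes, at -1.37 and -1.82 with panel scaling, and Atp2b1 did not pass by library totals (edgeR adjusted p = 0.137). Cyp24a1, which degrades vitamin D and is a classical target of VDR, was too low to test in both groups, at 0.0268 ± 0.0463 and 0.679 ± 0.650 CPM.

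**Figure D3:**
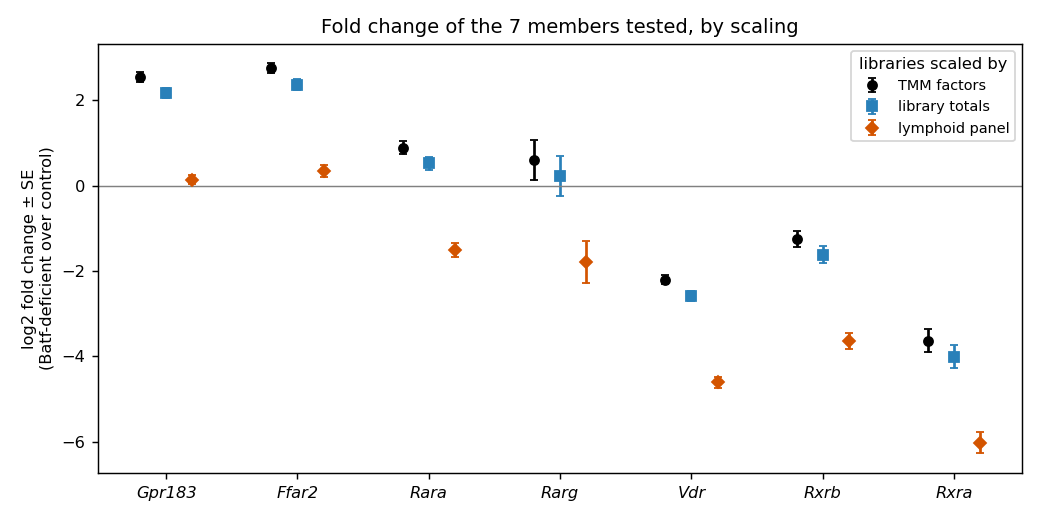
Log2 fold change (labelled Batf-deficient over labelled control) ± SE for the 7 receptor genes tested, with libraries scaled by TMM factors, by library totals and by the 19-gene lymphoid panel. Vdr, Rxrb and Rxra are below 0 in each scaling, Ffar2 and Gpr183 are near 0 with the panel (0.34 and 0.14), and Rara and Rarg change sign.

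Genes that take up, carry and convert retinoids were mostly lower in the libraries labelled Batf-deficient. Of 33 listed 25 were tested, 19 were lower and 2 higher (median -2.63), against 34.1% and 30.2% of all genes. By library totals 21 were lower and none higher, and with panel scaling 24 were lower and none higher, where 86.5% of all genes were lower. Rbp2, the retinol carrier of enterocytes, was at 0.520 ± 0.221 CPM in the libraries labelled Batf-deficient and 282 ± 27.1 CPM in labelled control libraries (log2 fold change -8.96). Adh1, which oxidizes retinol, was at 2.80 ± 0.432 and 219 ± 8.33 CPM (-6.26), and Aldh1a1, which makes retinoic acid from retinal, at 1.22 ± 0.368 and 117 ± 12.8 CPM (-6.55). The higher genes were Dhrs3, which returns retinal to retinol and is itself induced by retinoic acid, at 135 ± 12.9 and 84.9 ± 10.5 CPM, and Rdh12, a retinal reductase, at 4.16 ± 1.09 and 1.45 ± 0.365 CPM. Neither passed by library totals (edgeR adjusted p = 0.0833 and 0.0526). Their log2 fold changes of 0.67 and 1.49 became -1.73 and -0.90 with panel scaling, where Rdh12 did not pass (edgeR adjusted p = 0.103).

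Of 16 genes that retinoic acid is known to induce 11 were tested. With TMM factors 4 were higher and 4 lower (median -0.77), near the 30.2% and 34.1% of all genes. With the panel 1 was higher and 8 lower, against 2.04% and 86.5% of all genes. The higher ones were Itgb7, the integrin chain for gut homing, Hic1, a transcriptional repressor that retinoic acid induces in intestinal lymphocytes, Ccr9, the small-intestinal homing receptor, and Dhrs3. Itgb7 was at 1395 ± 31.5 CPM in the libraries labelled Batf-deficient and 134 ± 24.5 CPM in labelled control libraries, Hic1 at 89.1 ± 9.32 and 15.3 ± 1.47 CPM, and Ccr9 at 175 ± 11.3 and 32.6 ± 10.4 CPM. With panel scaling Itgb7 stayed higher (log2 fold change 0.98, edgeR adjusted p = 4.48e-06), while Hic1 (0.15) and Ccr9 (0.03) did not pass. Lower ones included the transglutaminase Tgm2 (-1.37), the retinoic acid hydroxylase Cyp26b1 (-2.63) and the chemoattractant Rarres2 (-3.83). Rarb, the receptor gene that retinoic acid itself induces, was near the limit of detection at 0.996 ± 1.02 and 2.39 ± 1.73 CPM and was not called with TMM factors (edgeR adjusted p = 0.201), though lower with the panel (-3.65, edgeR adjusted p = 0.000973).

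The other nuclear receptors that pair with RXR were mostly lower as well. Counting the receptors described here, 16 were tested, and 10 were lower and 2 higher (median -2.67), against 34.1% and 30.2% of all genes. With the panel 15 were lower and 1 higher, against 86.5% and 2.04% of all genes. The bile acid receptor Nr1h4 was at 0.90 ± 0.0605 CPM in the libraries labelled Batf-deficient and 29.4 ± 6.05 CPM in labelled control libraries, and the thyroid hormone receptor Thra at 9.10 ± 1.31 and 80.1 ± 7.38 CPM. Nr4a1, an immediate-early gene that responds to cell stimulation, was at 5927 ± 284 and 670.3 ± 64.3 CPM and stayed higher with panel scaling (log2 fold changes 3.14 and 0.75). Of 19 cofactors that nuclear receptors recruit, 9 were higher and 4 lower, but 7 were higher and 9 lower by library totals and all 19 were lower with panel scaling, against 42.4% of all genes lower by totals and 86.5% with the panel. The corepressor Nrip1 was at 823 ± 8.55 CPM in the libraries labelled Batf-deficient and 243 ± 19.9 CPM in labelled control libraries (log2 fold change 1.76, and -0.64 with the panel).

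Gpr183 (EBI2), the receptor for the oxysterol 7α,25-dihydroxycholesterol, was the highest of the 9 genes per kilobase of exon. It lies on chromosome 14 from 121952551 to 121965195 (minus strand), within the gene Ubac2 on the other strand, with which it shares no exon base. It was at 653, 657 and 617 CPM in libraries labelled Batf-deficient, against 113, 92.2 and 126 CPM in labelled control libraries. No library of one group came near the other, and Gpr183 was 5.80-fold higher (log2 fold change 2.54, SE 0.12, edgeR adjusted p = 3.96e-09). Relative to the panel it had 80.0, 82.0 and 80.1 counts per 1000 panel counts in the libraries labelled Batf-deficient and 73.9, 63.0 and 83.0 in labelled control libraries. There the groups overlapped and the test did not pass (log2 fold change 0.14, SE 0.11, edgeR adjusted p = 0.262). Scaled on the ILC3 markers it was lower (-0.42, edgeR adjusted p = 0.00761).

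Of 18 genes for oxysterol synthesis and sterol sensing 16 were tested (median -0.60). Of these 5 were higher, Gpr183 among them, and 9 lower, against 30.2% and 34.1% of all genes. With panel scaling none was higher and 15 were lower, against 2.04% and 86.5% of all genes. Enzymes that make or remove the GPR183 ligand were low in the libraries labelled Batf-deficient. Ch25h, which makes 25-hydroxycholesterol, was at 0.172 ± 0.150 CPM there and 3.79 ± 2.74 CPM in labelled control libraries, and Hsd3b7, which degrades the ligand, at 5.57 ± 0.903 and 49.8 ± 3.41 CPM. Their log2 fold changes were -4.31 and -3.15. Of the sterol-sensing nuclear receptors, Nr1h3 (LXRα) was lower at 1.2 ± 0.345 and 21.4 ± 6.01 CPM, whereas Nr1h2 (LXRβ) was at 77.2 ± 8.29 and 76.0 ± 13.2 CPM and was not called with TMM factors (edgeR adjusted p = 0.890). Srebf2, which drives cholesterol synthesis, was at 149 ± 7.27 and 80.5 ± 4.61 CPM, a log2 fold change of 0.89 that was -1.51 with the panel.

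Gpr15, known for guiding T cells to the large intestine, had few counts. Its gene lies on chromosome 16 from 58717433 to 58719070 (minus strand). It had 6, 7 and 4 counts in the libraries labelled Batf-deficient and none in any labelled control library. These 17 counts were 10.1 times a floor of 3 counts over the labelled control group on TMM-scaled sizes, and 1.91 times on panel counts. The lower 95% limits of the exact intervals, which cover counting error only and not the spread between libraries, were 7.32 and 1.39. In its exons 204 of 1638 bases, or 12.5%, overlap Cpox on the other strand, and whether the counting used strand is not given in the sources used here. Cpox had 203, 226 and 442 counts in the libraries labelled Batf-deficient and 299, 386 and 468 in labelled control libraries. The gene of the GPR15 ligand, listed as 2610528A11Rik, was too low to test at 0.193 ± 0.0730 and 1.26 ± 0.536 CPM.

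Other receptors of gut homing were well detected. Of 15 symbols 13 were in the table and 11 were tested, of which 5 were higher and 4 lower, against 30.2% and 34.1% of all genes. With panel scaling 2 were higher and 7 lower, against 2.04% and 86.5%. The 5 higher with TMM factors were Itgb7, Ccr9, Ccr6, Cxcr6 and the CCR6 ligand Ccl20; with the panel Itgb7 and Cxcr6 stayed higher, Ccr9 (0.03) and Ccl20 (0.35) did not pass and Ccr6 was lower (-1.63). Cxcr6, which binds CXCL16 and also served as an ILC3 marker here, was at 3645 ± 264 CPM in the libraries labelled Batf-deficient and 371 ± 25.0 CPM in labelled control libraries (log2 fold change 3.29, and 0.89 with the panel). The 4 lower ones were the epithelial chemokine Ccl25, the CCR9 ligand, at 5.59 ± 0.575 and 343 ± 16.2 CPM (-5.95), Cxcl16 (-4.63), Madcam1 (-4.00) and the receptor S1pr1. S1pr1 was at 11.6 ± 0.503 and 43.9 ± 5.66 CPM (log2 fold change -1.92, and -4.31 with the panel). Of 19 genes for G proteins, arrestins, kinases and RGS proteins that act on such receptors 17 were tested, and 7 were higher and 5 lower with TMM factors, 7 and 7 by library totals, and 3 and 14 with the panel. Over all genes 30.2% and 34.1%, 20% and 42.4%, and 2.04% and 86.5% were called in the same order. Rgs1, which dampens signalling of chemoattractant receptors, was at 3322 ± 572 and 258.7 ± 4.79 CPM (log2 fold change 3.68, and 1.28 with the panel), and the α subunit gene Gna11 at 27.1 ± 1.51 and 631 ± 67.2 CPM (-4.54).

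**Figure D4:**
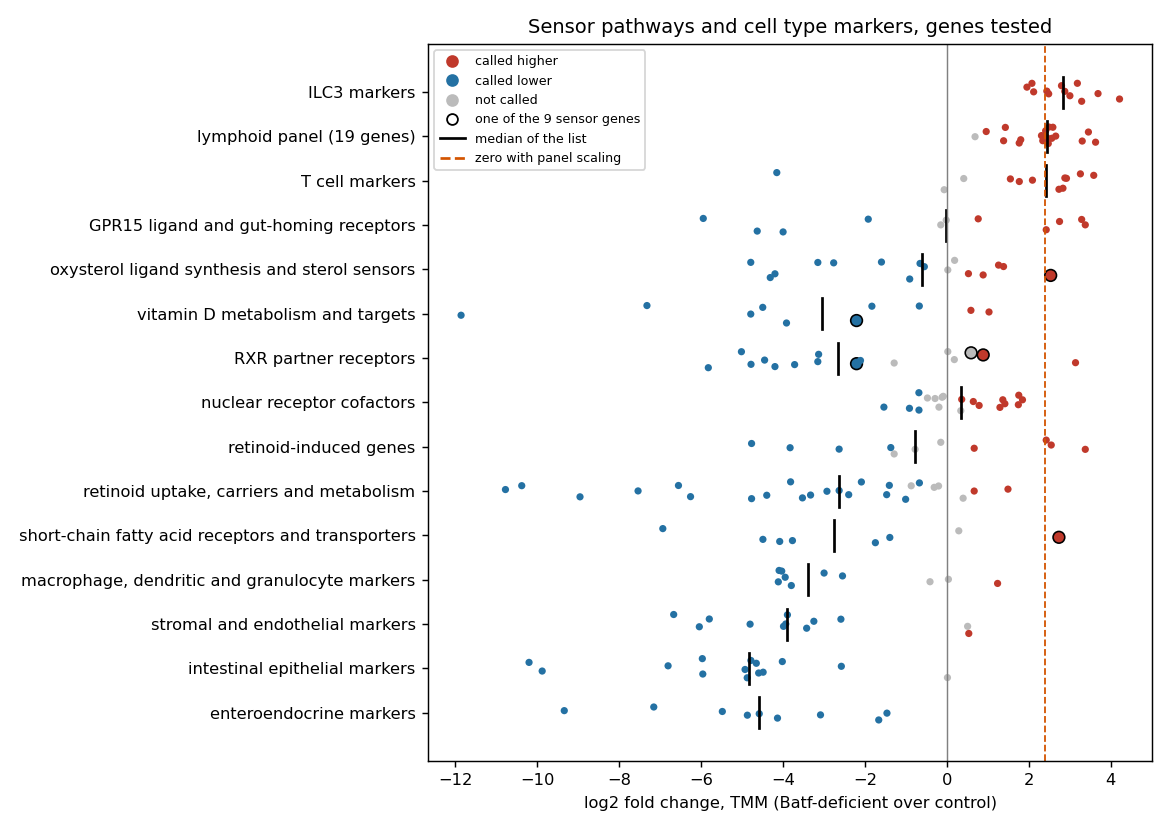
Log2 fold change (labelled Batf-deficient over labelled control, TMM factors) of each tested gene in the pathway and cell type marker lists drawn, 1 row per list. A bar marks each list's median and a dashed line the zero of panel scaling. Red points were called higher, blue lower and grey neither. Of the receptors described here Ffar2, Rara, Rarg, Vdr and Gpr183 are outlined, and the others were not tested or are in no list drawn. The median was -2.76 for short-chain fatty acid genes, -2.63 for retinoid metabolism and -3.06 for vitamin D genes. It was 0.17 for chemoattractant receptor signalling, a list not drawn, and 0.02 for all genes tested.

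The order of the 9 genes by level was compared per kilobase of exon, as TMM-scaled CPM per kilobase. In the libraries labelled Batf-deficient Gpr183 was highest at 222.5 ± 7.58, followed by Ffar2 at 67.1 ± 3.69, Rara at 14.1 ± 0.319, Vdr at 6.4 ± 0.217, Rxrb at 4.26 ± 0.855, Rarg at 0.979 ± 0.0177, Rxra at 0.515 ± 0.212, Gpr15 at 0.436 ± 0.214 and Ffar3 at 0.115 ± 0.0624. Of the neighbours in this order, Rxra and Gpr15 overlapped. In labelled control libraries Gpr183 led at 38.3 ± 5.97, before Vdr at 29.5 ± 1.74, Rxrb at 10.2 ± 1.24, Ffar2 at 10.1 ± 0.969, Rara at 7.57 ± 1.37, Rxra at 6.39 ± 0.557 and Rarg at 0.651 ± 0.310. Here Rxrb and Ffar2, Ffar2 and Rara, and Rara and Rxra overlapped. Gpr183 was thus the highest in both groups, while Vdr had rank 4 in the libraries labelled Batf-deficient and rank 2 in labelled control libraries.

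For each tested receptor the genes with the most similar pattern were those with the smallest root mean square difference in centred log2 CPM over the 6 libraries. For Ffar2 these were Ucp2 (0.0621), Bhlhe40 (0.0655) and Jaml (0.0769), and for Gpr183 they were Gimap3 (0.0744), itself a panel gene, Tagap (0.0744) and Inpp5d (0.0826). Rara was nearest to S100a6 (0.0394) and Gpsm1 (0.0432), and Rarg to Abtb2 (0.0816), Fbxw10 (0.0857) and Zbtb39 (0.0932). Rxra was nearest to Pdpn (0.108), to C1qa (0.111), a complement gene of macrophages, and to Spon2 (0.162). Rxrb was nearest to Slc14a1 (0.0850), Slc25a22 (0.0966) and Golga4 (0.0992), and Vdr to Cpt2 (0.0532), Bdh1 (0.0563) and Lgals3 (0.0600). All 6 libraries share the difference in composition between the groups, so these measures are descriptions.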

How the data were processed

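Bulk Smart-seq2 RNA-seq of 6 ILC3 samples was analysed, 3 from Batf fl/fl PLZF-Cre+ and 3 from Batf fl/fl PLZF-Cre- mice, grouped by their labels. The authors deposited raw counts per gene symbol in 1 table. The genome build was mm10, as the submitters' processing notes list it. Aligner, counter, annotation and use of strand were not given in the sources used here. The 9 receptors, the gene lists and the tests were chosen with earlier results of these data known.

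Of 25075 symbols, 15261 passed edgeR's filterByExpr (minimum count 10) and were tested with the quasi-likelihood test (edgeR 4.0.16, R 4.3.3, TMM factors, robust), with Benjamini-Hochberg adjustment over all genes tested and a threshold of 0.05. Scaling by library totals and by the summed counts of a 19-gene lymphoid panel, DESeq2 1.42.0, limma 3.58.1 (voom), no filter and leaving out each library were alternatives. Count ratios within a library had 0.5 added and an exact permutation test. Named pathway genes came from the members of each list past the threshold with the lowest p, at most 6 in each direction; Hcar2, Cyp24a1, Rarb, Nr1h2 and 2610528A11Rik, and the markers Clec9a and Vil1, fall outside that rule and were chosen after their values were seen. For each receptor tested, the 3 genes nearest in pattern were named, leaving out placeholder gene models; a few genes that these rules name are not reported here. A floor is 3 counts, over the group for a fold and 0.155 to 0.425 CPM for a library; it covers counting error only, as do the exact intervals. Labelled Batf-deficient replicates 1 and 2 differed least (mean chi-square 2.36 per gene, against 14.8 to 24.2 within the other pairs of a group), which is still more than sampling noise, and were kept as 2 samples. The labels do not say whether samples came from separate mice, so p-values measure the spread between these samples. Promoters are from RefSeq (GRCm38.p6), gene coordinates and exon lengths from GENCODE M21 on mm10.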

Additional observations from a re-analysis of the deposited data

How the results depend on the processing

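The calls for Vdr, Rxra and Rxrb (lower) kept their direction and stayed past the threshold under every alternative run. With library totals and lymphoid genes, which move genes down relative to TMM, their direction could not have turned. Replacing TMM by library totals, by DESeq2 size factors or by voom, or averaging labelled Batf-deficient replicates 1 and 2, left the 6 calls among the receptors as they were; without a count filter Gpr15 was called too, making 4 higher (edgeR adjusted p = 0.0121). Scaling on lymphoid genes changed the others. With the summed panel, with its median gene and with the ILC3 markers (the last 2 added after seeing the data), Rara was at -1.51, -1.47 and -2.06, Rarg at -1.79, -1.76 and -2.36, and Batf at -1.11, -1.08 and -1.67. Gpr183 was at 0.14 and 0.17 with the 2 panel scalings and -0.42 with ILC3 markers, and Ffar2 at -0.22 with ILC3 markers. Receptors called higher numbered 1, 1 and 0 and lower 5, 5 and 6. Genes called higher numbered 3052 by library totals and 312, 325 and 164 with the 3 lymphoid scalings, where 13205, 13155 and 13956 were lower; of the pathway genes 7 were higher and 110 lower with the panel, against 34 and 64. These scalings move all genes together by construction.

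Leaving out 1 library each gave 2.59 to 2.80 for Ffar2, 2.42 to 2.65 for Gpr183, 0.77 to 1.03 for Rara, 0.24 to 0.88 for Rarg, -3.98 to -3.46 for Rxra, -1.52 to -1.17 for Rxrb and -2.30 to -2.16 for Vdr, with 3599 to 4646 genes higher and 4906 to 5147 lower. The difference between the groups in mean log2 ratio then ranged from -0.17 to 0.66 for Rara over Rarg and from -0.73 to 0.11 for Ffar2 over Ffar3. The difference for Ffar2 over Ffar3 was 0.52 with 1 added to each count, since Ffar3 was at 0 in labelled control libraries. Deviations of same-numbered samples from their group means had correlations of 0.00449, 0.0209 and 0.0304. With 3 samples in each group, these values cannot show whether the numbers pair samples. With the replicate block 4603 genes were higher and 5091 lower, Ffar2 was at 2.74, and the receptors gave 3 higher and 3 lower calls. Depth limits Ffar3 and Gpr15, whose absence from labelled control libraries is an absence of counts only.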
